A study of Mus musculus with 12 samples.

Results

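The effect of CHIR99021 on gene expression in mouse epiblast stem cells (EpiSCs, pluripotent cells of the kind found in the epiblast after implantation) was measured by setting all 6 arrays of cells given CHIR99021 against all 6 arrays of cells not given it, out of 12 arrays in the series. The 6 arrays with CHIR99021 were chosen by the treatment named in the sample titles: 3 held CHIR99021 alone (3 µM, 2 h) and 3 held CHIR99021 (3 µM, 2 h) with XAV939 (2 µM). The 6 arrays without it were 3 with XAV939 alone (2 µM) and 3 with neither compound. All cells were EpiSCs of genetic background 129 by most labels, while 1 label field calls them embryonic stem cells, and the design text has them starved without serum for 12 h, whereas the growth protocol lists 10% serum. The time with XAV939 is 2 h in the sample labels and 4 h in the design text. Separate cultures are not stated for the replicates, so all p-values rest on a spread that could be technical only.

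CHIR99021 inhibits the kinase GSK3. In the Wnt pathway, GSK3 works within the destruction complex built on Axin and Apc to mark beta-catenin for degradation, and when GSK3 is inhibited beta-catenin accumulates and acts with TCF/LEF factors on target genes. GSK3 also phosphorylates many proteins outside this pathway, Myc among them. XAV939 inhibits tankyrase, which stabilises Axin and favours the destruction complex.

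Values are log2 expression per gene as deposited, and a change is the mean with CHIR99021 minus the mean without it on that scale, from a limma fit that held the presence of XAV939 as a second factor. Changes with a Benjamini-Hochberg adjusted p under 0.05 over 19938 genes were called. The 6 against 6 comparison called 339 genes, which is 1.7% of those tested. Of these, 164 were higher (0.823%) and 175 lower (0.878%). The single comparisons with 3 arrays a side called fewer genes: 84 (0.421%) for CHIR99021 alone against untreated cells and 47 (0.236%) for both compounds against XAV939 alone. For scale, the fit called 76 genes (0.381%) for XAV939.

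Array medians lay between 5.22 and 5.27, and correlations between arrays between 0.990 and 0.995. The spread of values within an array (standard deviation, SD) averaged 2.188 ± 0.017 with CHIR99021 and 2.168 ± 0.024 without it (SD, n = 6 each). Bright genes were shifted slightly up and dim genes slightly down: the median change was between -0.04 and -0.00 in the 6 dimmest of 10 equal bins of genes and between 0.03 and 0.04 in the 4 brightest bins. With each array's SD as a covariate 189 genes were called, 71 higher and 118 lower; what causes the difference in spread was not tested. The summed level of 10 epiblast markers, on the linear scale, spanned 11150 to 11520 with CHIR99021 and 10730 to 12430 without it, and none of the 10 was called. The sums of 10 feeder fibroblast markers (371.6 to 415.2 with CHIR99021, 397.5 to 423.5 without) and 10 extraembryonic endoderm markers (328.2 to 342.8 with, 336.8 to 366.6 without) overlapped between the groups, and none of their members was called. At an unadjusted limma p under 0.05, 3 of the 10 endoderm markers and 1 of the 10 feeder markers were lower and 0 higher. Of all 19938 genes, 1403 were higher and 1415 lower at that threshold. Among 8 neural markers Pax6 was called lower, by 0.25. In bulk RNA, a change in the share of cells of one type and a change in RNA per cell cannot be told apart.

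Most of what the pooled test called was small and was not called in either single comparison. These genes numbered 247 (1.24% of those tested), with 113 higher and 134 lower. The split moved with the scaling, to 75 higher and 141 lower with quantile normalization and to 27 higher and 76 lower with array SD as a covariate, and leaving out CHIR99021 replicate 3 left 163 such genes. They ranged from the homeobox gene Nkx1-2 and microRNA genes of the miR-302 cluster on the higher side to Fgf4, the FGF ligand made by pluripotent cells, and the membrane protease gene Prss8 on the lower side. Their median change was 0.28 in size, or 1.22-fold, and all lay between 1.15-fold and 1.51-fold. The change was under 0.32 in size in 177, from there to 1.5-fold in 69 and larger in 1. The 92 genes that a single comparison also called had a median size of 0.42.

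**Figure D1:**
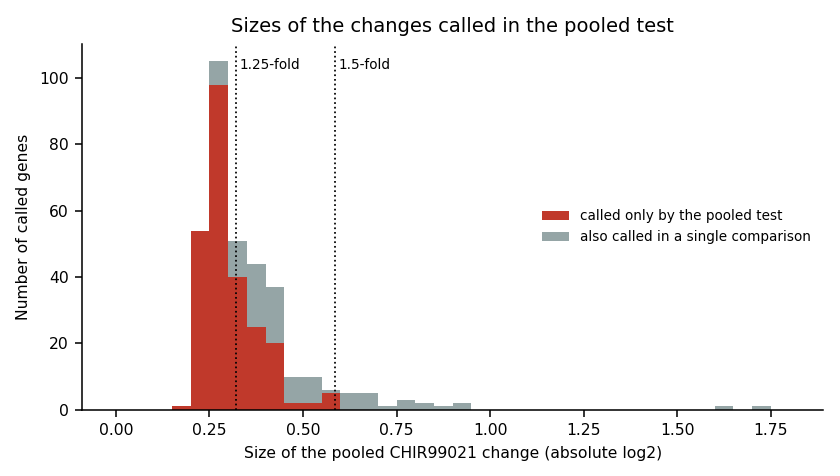
Number of genes called in the pooled test (vertical axis) by the absolute size of the pooled CHIR99021 change in log2 units (horizontal axis); the dotted lines mark changes of 0.32 and of 1.5-fold. Most of the 247 genes called only by the pooled test, 177, lie left of the first line, and the tail past 0.6 holds only genes that a single comparison also called.

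The pooled test has a smaller error by construction: over all genes the median standard error (SE) was 0.0628 for the pooled change and 0.0887 for a single comparison. The 247 genes had similar sizes in each stratum, with a median of 0.29 against untreated and 0.285 with XAV939 on both sides. In 233 of them the unadjusted p was under 0.05 in both single comparisons, and in the other 14 in one of them. The lowest adjusted p that any of them reached in a single comparison was 0.0515, for Nfkbia against untreated. The values with and without CHIR99021 did not overlap in 123 of the 247, against 325 of all 19938 genes (1.63%). This share, the similar sizes in each stratum and the counts of unadjusted p follow from how the genes were chosen. They are given as a description. They were brighter than most genes, with a median level of 6.92 against 5.43 over all genes, and 16 lay below a background measure of 4.93 taken from olfactory and vomeronasal receptor genes.

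Among the higher genes called only by the pooled test, Nkx1-2, a homeobox transcription factor of the caudal epiblast, had the smallest p. With CHIR99021 alone it read 5.32, 5.49 and 5.64, and with both compounds 5.16, 5.07 and 5.58, against 5.05, 4.86 and 4.90 in untreated cells and 4.54, 4.86 and 4.76 with XAV939 alone. All 6 arrays with CHIR99021 exceeded all 6 without it, and the pooled change was 0.55 (SE 0.0847, limma adjusted p = 0.00198). Without CHIR99021, 5 of the 6 arrays lay below the background measure of 4.93, so the size of this change is uncertain. The single changes were 0.55 against untreated (adjusted p = 0.0689) and 0.55 against XAV939 (adjusted p = 0.0929). Irx5, an Iroquois homeobox gene, ran between 6.37 and 6.72 (median 6.57) with CHIR99021 and between 5.89 and 6.32 (median 6.07) without it. It rose by 0.44 (SE 0.0725, adjusted p = 0.00357), and its groups did not overlap either.

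The list of higher genes also held genes of other kinds. Lipg, which encodes endothelial lipase, ran between 7.73 and 7.96 (median 7.84) with CHIR99021 and between 7.28 and 7.63 (median 7.55) without it, a change of 0.33 (SE 0.0521, limma adjusted p = 0.00236). Oat, the ornithine aminotransferase of mitochondria, ran between 9.33 and 9.69 (median 9.44) with CHIR99021 and between 8.97 and 9.29 (median 9.20) without it, a change of 0.31 (adjusted p = 0.00484). Both genes kept the groups apart. Lzts1 (0.33), Ankrd50 (0.28), Uspl1 (0.28) and Lurap1l (0.38) also rose with no overlap between the groups. In Fam13b the rise was 0.43 and the ranges touched, with a lowest value of 7.60 with CHIR99021 and a highest of 7.61 without it.

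Among the lower genes called only by the pooled test, Fgf4 led. It read 8.65, 8.63 and 8.66 with CHIR99021 alone and 8.56, 8.88 and 8.83 with both compounds, against 9.05, 9.13 and 9.24 in untreated cells and 9.03, 9.45 and 9.17 with XAV939 alone. The groups did not overlap, and the change was -0.48 (SE 0.0717, limma adjusted p = 0.0016), or 1.39-fold lower. The single changes were -0.49 against untreated (adjusted p = 0.0533) and -0.46 against XAV939 (adjusted p = 0.102).

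Other lower genes by p included those for proteins of the cell surface. Prss8, which encodes the membrane-anchored protease prostasin, ran between 7.80 and 8.40 (median 8.19) with CHIR99021 and between 8.48 and 8.70 (median 8.63) without it, a change of -0.48 (SE 0.0748, limma adjusted p = 0.00236). Plet1, a surface protein of placental and epithelial progenitors, ran between 5.29 and 5.59 (median 5.47) with CHIR99021 and between 5.74 and 5.88 (median 5.83) without it, a change of -0.38 (adjusted p = 0.0023). Both fell with no overlap between the groups. Cdh3, or P-cadherin, fell by 0.30 (adjusted p = 0.00231), although its ranges overlapped, at 7.16 to 7.51 with CHIR99021 and 7.42 to 7.87 without it. Cdh3 was also called for XAV939, in the other direction, with a change of 0.30 (adjusted p = 0.029). Marveld1, a membrane protein gene, fell by 0.34.

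Pdp1, the phosphatase that activates pyruvate dehydrogenase, was almost level over the 6 arrays with CHIR99021, from 6.75 to 6.80 (median 6.78), and varied from 7.04 to 7.50 (median 7.14) without it. Its change was -0.43 (SE 0.0718, limma adjusted p = 0.00352). Nfkbia, the inhibitor of NF-kappaB that NF-kappaB itself induces, ran between 5.82 and 6.10 (median 5.85) with CHIR99021 and between 6.14 and 6.46 (median 6.31) without it, a change of -0.39 (adjusted p = 0.00505). In both genes every array with CHIR99021 lay below every array without it. Letm2 (-0.30), Tmem203 (-0.41), Tmem231 (-0.31) and Rnf122 (-0.39) fell in the same way, without overlap. Adamts5, a protease of the extracellular matrix, fell by 0.41 but lay below the background measure, at 3.80 to 4.08 with CHIR99021 and 4.19 to 4.47 without it.

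**Figure D2:**
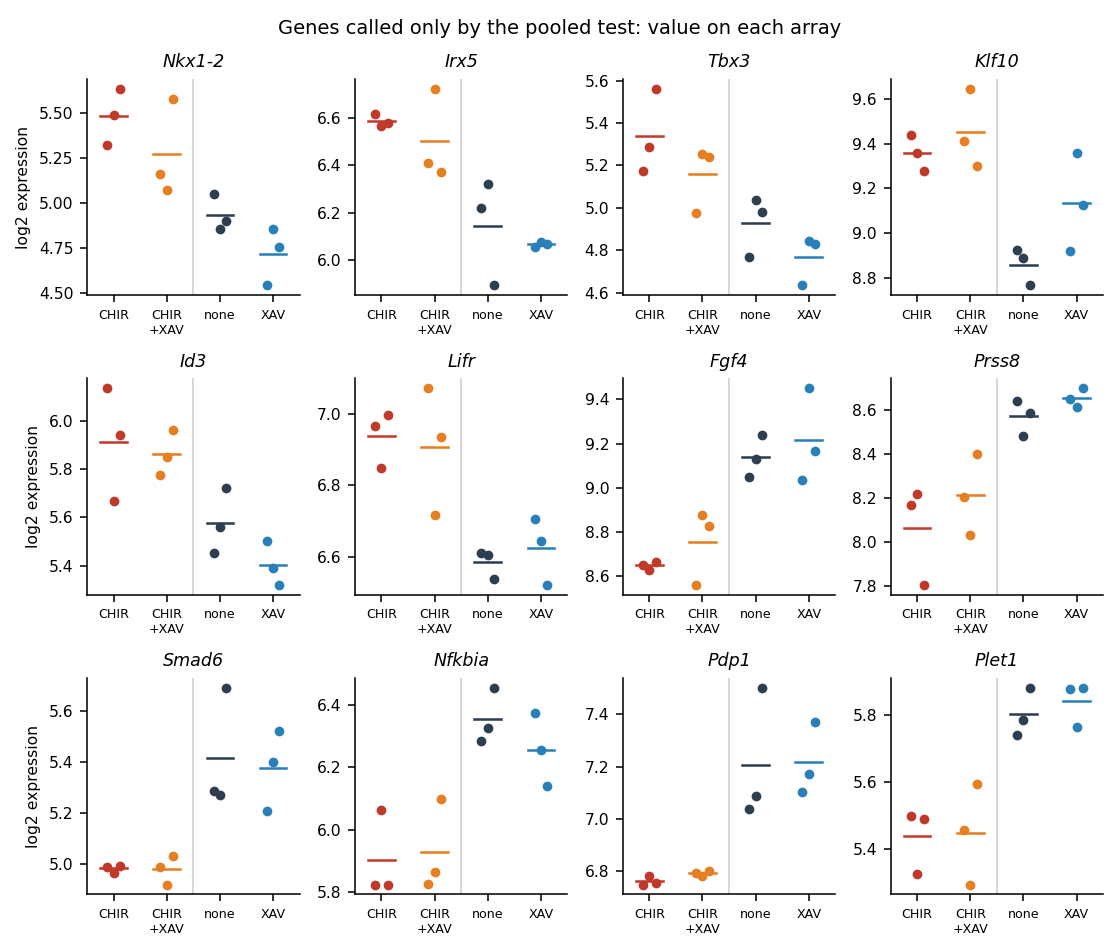
Log2 expression on each array (points) and group mean (line) for 12 genes called only by the pooled test, with the groups given CHIR99021 left of the grey line and those without it right of it. Values left and right of the line do not overlap except in Tbx3, Klf10 and Id3.

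The threshold itself separates genes of like size. Just inside it lay Foxk2 (-0.24, adjusted p = 0.0491) and Traf3ip1 (0.24, adjusted p = 0.0498). Just outside lay Ankrd23 (-0.28, adjusted p = 0.0502) and Gne (-0.22, adjusted p = 0.0514).

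Whether the CHIR99021 change depended on XAV939 was tested with the interaction term of the fit with 4 group means. No gene was called: the smallest limma adjusted p was 0.107, and 985 genes (4.94%) had an unadjusted p under 0.05. Fits with trend and robust settings and with array weights each called 1 gene. Among the 339 called genes, 26 (7.67%) had an unadjusted interaction p under 0.05. Of these, 24 were among the 92 genes that a single comparison also called and 2 among the 247 that only the pooled test called. Genes with a large change in 1 stratum enter the first set by choice, so the difference between the sets is not a result.

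Of the named genes, Tiparp, Gbx2, Sp5 and Ccn2 had the smallest unadjusted interaction p. Gbx2, a homeobox gene that supports pluripotency, read 7.82, 7.87 and 7.92 with CHIR99021 alone and 7.14, 7.21 and 7.43 with both compounds, against 6.69, 6.86 and 6.65 in untreated cells and 6.40, 6.54 and 6.69 with XAV939 alone. The pooled change of 0.93 (SE 0.0818, limma adjusted p = 8.1e-06) thus averaged 1.14 without XAV939 and 0.72 with it, an interaction of -0.42 (SE 0.132, limma adjusted p = 0.965). Sp5, a transcription factor and direct Wnt target, changed by 1.08 without XAV939 and by 0.51 with it. All its arrays without CHIR99021 lay below the background measure, as did its mean with both compounds, 4.70. The sizes of these Sp5 changes, and so their difference, are uncertain. Tiparp, a target of the aryl hydrocarbon receptor, changed by 0.49 without XAV939 and by 0.14 with it. None of these differences between the strata passed the adjustment. Ccn2, or connective tissue growth factor, fell, and by more with XAV939 (-0.56) than without it (-0.16), an interaction of -0.40 (SE 0.131, limma adjusted p = 0.965).

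**Figure D3:**
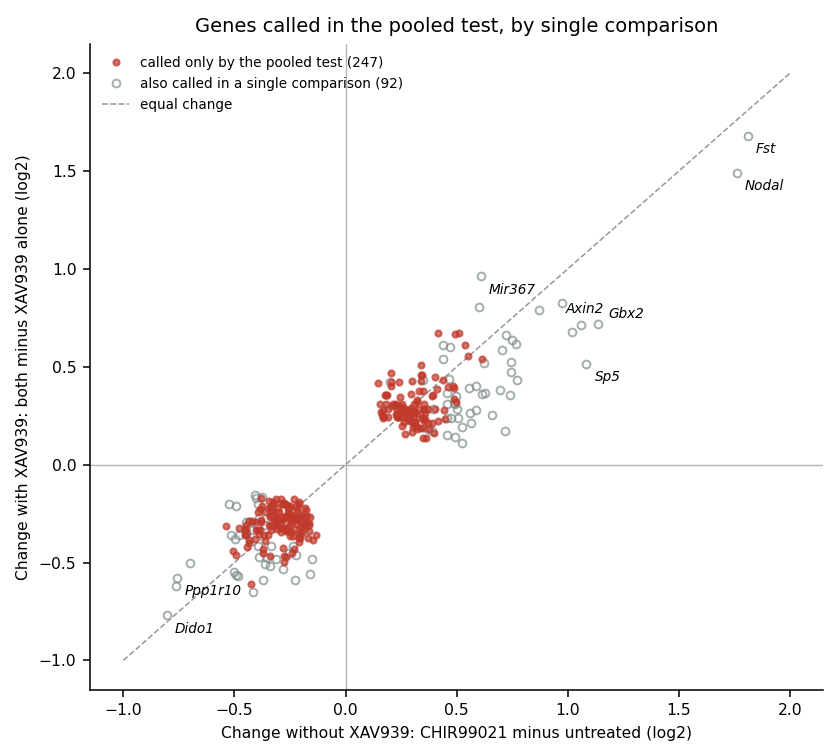
Change in log2 expression with XAV939 on both sides (vertical axis, both compounds minus XAV939 alone) against the change without XAV939 (horizontal axis, CHIR99021 minus untreated) for the 339 called genes; filled red points were called only by the pooled test. The red points lie within about 0.7 of zero in both directions; Gbx2, Axin2 and Sp5 lie below the dashed line of equal change and Mir367 above it.

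Of 34 gene lists with 595 measured members, 29 lists held at least 1 called gene, and 74 distinct members were called, 30 of them only by the pooled test. The lists were chosen with earlier results of these data known. Over all genes the median change was -0.00 and 1.7% were called.

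Wnt and beta-catenin target genes were called in 9 of 24 cases, 7 higher and 2 lower, with a median of 0.09 over the list. Axin2, the Wnt-induced scaffold of the destruction complex, ran between 6.35 and 7.03 (median 6.72) with CHIR99021 and between 5.55 and 6.04 (median 5.85) without it, a change of 0.89 (SE 0.0795, limma adjusted p = 8.7e-06). Znrf3, a ligase that removes Wnt receptors from the surface, rose by 0.57, the R-spondin receptor Lgr5 by 0.40 and the Wnt antagonist Dkk1, whose arrays without CHIR99021 all lay below the background measure, by 0.27. Lgr5 was almost level without CHIR99021, at 7.04 to 7.08, and ran between 7.26 and 7.59 with it. The 2 lower members were Myc, by -0.40 (adjusted p = 0.00236), and Ascl2, a bHLH factor of intestinal stem cells and trophoblast. Ascl2 was called only by the pooled test, with 5.17 to 5.34 (median 5.30) with CHIR99021 and 5.41 to 5.61 (median 5.56) without it, a change of -0.26 (adjusted p = 0.015). The fixed Wnt genes Lef1 (0.05), Nkd1 (0.11) and Cdx1 (-0.04) were not called.

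The other parts of the Wnt pathway changed at few members. Of 22 genes of Wnt ligands and secretion, Wnt8a (0.69) and Porcn (0.28), the enzyme that lipidates Wnt proteins, rose. Porcn ran between 6.80 and 6.91 with CHIR99021 and between 6.36 and 6.71 without it, with a change of 0.39 against untreated (limma adjusted p = 0.0323) and 0.17 with XAV939 on both sides (adjusted p = 0.478). Of 22 receptor and R-spondin genes, Rspo3 (0.50) and Lgr5 rose. Axin2 was the 1 called member of 16 in the destruction complex list. Among 14 TCF/LEF factors and co-factors the beta-catenin co-factor gene Bcl9l was called lower, only by the pooled test, at -0.21 (adjusted p = 0.0381); its ranges overlapped and it lost the call in 16 of 26 alternative fits.

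The Nodal pathway held the largest changes, at 2 of 24 members. Fst, which encodes the activin antagonist follistatin, ran between 8.91 and 9.83 (median 9.50) with CHIR99021 and between 7.30 and 8.08 (median 7.72) without it, a change of 1.75 (SE 0.0679, limma adjusted p = 1.0e-10). The ligand gene Nodal rose by 1.62 (SE 0.0707, adjusted p = 3.1e-10). The median of the list was -0.03. Of 22 genes of the BMP pathway and its Id targets, 3 were called. Rgma, a BMP co-receptor, rose by 0.63, and the pooled test alone called Id3 and Smad6. Id3, an inhibitor of bHLH factors that BMP induces, ran between 5.67 and 6.14 (median 5.89) with CHIR99021 and between 5.32 and 5.72 (median 5.48) without it, a change of 0.40 (adjusted p = 0.0099). Smad6, an inhibitory Smad, lay between 4.92 and 5.03 (median 4.99) with CHIR99021 and between 5.21 and 5.69 (median 5.34) without it, a change of -0.42 (adjusted p = 0.00532). With CHIR99021, Smad6 lay near the background measure of 4.93, so the size of this change is uncertain. The ranges of Id3 overlapped at 1 pair of values and those of Smad6 did not.

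Pluripotency genes moved in both directions. Of 21 core and naive genes, 3 rose and 1 fell, and all but Gbx2 were called only by the pooled test. Tbx3, a T-box factor of naive cells, ran between 4.98 and 5.56 (median 5.25) with CHIR99021 and between 4.63 and 5.04 (median 4.84) without it, a rise of 0.40 (SE 0.0753, limma adjusted p = 0.0099). Klf2, a factor of naive pluripotency, ran between 5.51 and 5.76 with CHIR99021 and between 5.27 and 5.58 without it, a rise of 0.21 (adjusted p = 0.0308). Both rises had overlapping ranges. Tbx3 lay around the background measure without CHIR99021, and the call of Klf2 was lost in 12 of 26 alternative fits. Fgf4 was the lower member. The summed linear level of 10 naive markers spanned 689.4 to 776.9 with CHIR99021 and 796.5 to 994.7 without it. Fgf4 is bright and weighs most in this sum, so the lower sum is not a fall of the markers as a set. The median change of the 10 was 0.05, with 2 called higher and 1, Fgf4, called lower. Pou5f1 (-0.01), Sox2 (-0.04), Fgf5 (-0.13) and Nanog (0.27, adjusted p = 0.0764) were not called. No member of 14 primed epiblast genes was called by limma, where 3 had an unadjusted p under 0.05. Of all 19938 genes, 1403 were higher and 1415 lower at that threshold. Lifr, the receptor of the naive-state cytokine LIF, ran between 6.72 and 7.07 (median 6.95) with CHIR99021 and between 6.52 and 6.70 (median 6.61) without it, and rose by 0.32 (adjusted p = 0.0116), only in the pooled test. In the same list Pim1, a kinase gene induced by STAT3, fell by 0.53.

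Hippo/YAP target genes were called in 6 of 17 cases, 5 lower and 1 higher, and the list had a median of -0.14. Ccn1 (-0.53), Amotl2 (-0.34) and Ccn2 (-0.36) were also called in a single comparison. The pooled test alone called Lats2, a kinase that restrains YAP, running between 5.31 and 5.58 (median 5.45) with CHIR99021 and between 5.60 and 5.97 (median 5.72) without it, a change of -0.30 (limma adjusted p = 0.0281). It also called the scaffold gene Ajuba at -0.22 (adjusted p = 0.0417) and F3, or tissue factor, at 0.29 (adjusted p = 0.0188). Lats2 and F3 kept the groups apart, and the ranges of Ajuba overlapped. Of 26 alternative fits, Ajuba lost its call in 16, Ccn2 in 9, Lats2 in 6 and F3 in 3. Ccn1, Ccn2 and F3 are also induced by serum and stress. Of 32 immediate early genes, 3 rose and 3 fell. Klf10, a repressor that TGF-beta induces, rose by 0.41 (adjusted p = 0.0099) and Klf6 by 0.26, while the MAP kinase phosphatase gene Dusp1 fell by 0.36 (adjusted p = 0.0137) and Csrnp1 by 0.28, these 4 only in the pooled test. Plk2 (0.39) and Gadd45b (-0.60) were also called in a single comparison.

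Genes around folliculin and the lysosome moved upward at 4 of 26 members, with none lower and a list median of 0.12. Fnip1, a binding partner of folliculin, ran between 8.41 and 8.75 (median 8.46) with CHIR99021 and between 7.86 and 8.03 (median 7.99) without it, a change of 0.54 (SE 0.0587, limma adjusted p = 9.5e-05). The folliculin gene Flcn itself (0.28, adjusted p = 0.0306), the lysosomal chloride transporter gene Clcn7 (0.40, adjusted p = 0.0292) and the lysosomal peptidase gene Dpp7 (0.35, adjusted p = 0.00993) were called only by the pooled test. All 3 had overlapping ranges. Of the 26 members, 25 lay above the background measure, and the median change in the brightest bins of all genes was 0.03 to 0.04. Whether brightness bears on the changes of this list was not tested. At an unadjusted limma p under 0.05, 13 of the 26 members were higher and 0 lower, against 1403 higher and 1415 lower of all 19938 genes. Of 26 alternative fits, Flcn lost its call in 13, Clcn7 in 11, Dpp7 in 3 and Fnip1 in none.

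Clock genes were called in 4 of 16 cases. The repressor genes Bhlhe41 (0.70) and Bhlhe40 (0.31) rose, and the REV-ERB receptor genes Nr1d1 (-0.43) and Nr1d2 (-0.26) fell. Bhlhe40 and Nr1d2 were called only by the pooled test, at limma adjusted p = 0.0339 and 0.0462. Bhlhe40 ran between 5.17 and 5.56 with CHIR99021 and between 4.85 and 5.13 without it, and Nr1d2 between 7.10 and 7.37 and between 7.36 and 7.65. The lowest value of Bhlhe40 without CHIR99021 lay below the background measure of 4.93. Bhlhe40 lost its call in 10 of the alternative fits and Nr1d2 in 17.

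Single members of other regulator lists were called only by the pooled test. The Notch modifier gene Lfng fell by 0.38 (1 of 18 Notch genes), the Myc antagonist gene Mnt by 0.20 (with Myc, 2 of 13 in the Myc network), and Sox12 by 0.24 (with Sox4 at -0.48, 2 of 18 Sox genes). Hoxb1 rose by 0.26 (with Cdx2 at 0.35, 2 of 17 Hox and Cdx genes, of which 3 lay above the background measure, Cdx2 not among them) and the co-chaperone gene Bag3 by 0.32 (1 of 11). Mnt had the narrowest ranges of these, with 6.54 to 6.63 with CHIR99021 and 6.75 to 6.84 without it. Calls were lost in 11 of 26 alternative fits for Mnt, 9 for Sox12, 8 for Hoxb1, 4 for Lfng and 2 for Bag3. Beside primed epiblast, 4 lists had no called member in the limma fit: ribosome biogenesis (27 genes), cholesterol synthesis (20), G2/M phase (22) and glycolysis (16). At an unadjusted limma p under 0.05 they held 3, 5, 3 and 3 genes, against 1403 higher and 1415 lower of all 19938 genes.

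**Figure D4:**
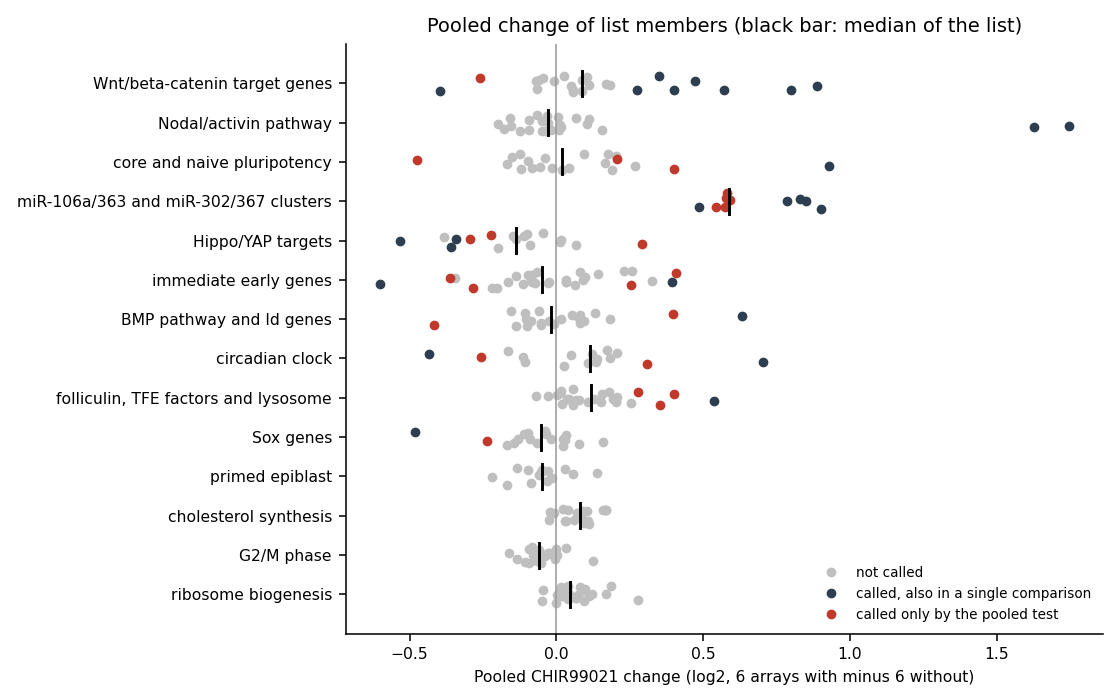
Pooled CHIR99021 change in log2 units (horizontal axis) of each measured member of 14 gene lists (rows); red points were called only by the pooled test, dark points also in a single comparison, grey points were not called, and the black bar is the median of the list. The microRNA clusters lie wholly to the right of zero, Hippo/YAP targets lie mostly to the left, and the bottom 4 rows hold no called gene.

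A pair of microRNA clusters was called at every measured member in the main fit. MicroRNAs repress messenger RNAs that pair with their seed, bases 2 to 8, and the miR-302 cluster is abundant in pluripotent cells. All 10 measured genes of the miR-302 cluster on chromosome 3, with Mir367 at its end, and of the miR-106a cluster on chromosome X were called higher, 5 of them only by the pooled test. The ranges of Mir302a, Mir302b, Mir302c and Mir302d overlapped between the groups. Of 26 alternative fits, Mir302a and Mir302d lost the call in 3, Mir302b and Mir363 in 2 and Mir302c in 1. Mir367, Mir106a, Mir20b, Mir19b-2 and Mir92-2 lost it in none. Genes of a cluster come from 1 transcript, so they are not independent, and array probes for them do not separate the primary transcript from the mature microRNA. Of all 297 microRNA genes measured, 13 (4.38%) were called, all 13 higher, while the median over the 297 was -0.02. The other 3 were Mir19b-1, Mir20a and Mir369, each called only by the pooled test.

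The mature sequences of 10 called members are shown because many share a seed, some of them across chromosomes. The seed of miR-302c is shared with none of the others shown, although the string AAGUGCU of miR-302b and miR-302d starts at its first base. Mir302a and Mir369 are named only. They are from RefSeq, build GRCm38.p6, 5′ to 3′, with the seed in capitals.
miR-106a-5p (chrX:52742541-52742563, minus strand): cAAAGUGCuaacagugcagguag
miR-20b-5p (chrX:52742159-52742181, minus strand): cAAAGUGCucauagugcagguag
miR-20a-5p (chr14:115044183-115044205, plus strand): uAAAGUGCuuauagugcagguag
miR-302b-3p (chr3:127545275-127545297, plus strand): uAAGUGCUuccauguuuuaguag
miR-302d-3p (chr3:127545665-127545687, plus strand): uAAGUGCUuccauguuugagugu
miR-302c-3p (chr3:127545406-127545427, plus strand): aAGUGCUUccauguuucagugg
miR-367-3p (chr3:127545779-127545800, plus strand): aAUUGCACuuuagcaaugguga
miR-363-3p (chrX:52741697-52741718, minus strand): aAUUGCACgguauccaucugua
miR-92a-3p, from Mir92-2 (chrX:52741854-52741874, minus strand): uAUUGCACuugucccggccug
miR-19b-3p, from Mir19b-2 (chrX:52741991-52742013, minus strand): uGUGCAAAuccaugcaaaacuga

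MiR-106a, miR-20b and miR-20a share the seed AAAGUGC, miR-302b and miR-302d share AAGUGCU, and miR-367, miR-363 and miR-92a share AUUGCAC. Mir19b-1 on chromosome 14 encodes the same mature miR-19b as Mir19b-2 on chromosome X, so the 2 probes may share signal. Both were higher, by 0.37 for Mir19b-1 (limma adjusted p = 0.00738) and by 0.90 for Mir19b-2 (adjusted p = 0.00124). The sequences of miR-20a and miR-20b above are nearly alike, so the probes of Mir20a and Mir20b may share signal too, which was not tested.

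The miR-302 genes spread widely between arrays, with a pooled SE of 0.102 to 0.112 against a median of 0.0628 over all genes. Mir302c read 10.40, 9.84 and 10.52 with CHIR99021 alone and 9.79, 9.77 and 9.96 with both compounds, against 9.67, 9.89 and 9.71 in untreated cells and 9.41, 8.95 and 9.17 with XAV939 alone. The arrays with both compounds lay near the untreated ones, and those with XAV939 alone lay lowest. The pooled change of Mir302c was 0.58 (SE 0.102, limma adjusted p = 0.00581), with 0.49 against untreated (adjusted p = 0.195) and 0.67 against XAV939 (adjusted p = 0.0828). XAV939 moved it the other way, by -0.50 (adjusted p = 0.045). Mir302b (0.57), Mir302a (0.59), Mir302d (0.54) and Mir367 (0.79) also had their highest mean with CHIR99021 alone and their lowest with XAV939 alone, and each was also lower with XAV939, by -0.52 to -0.56.

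No gene of the miR-106a cluster was called for XAV939. Mir106a read 6.30, 6.19 and 6.40 with CHIR99021 alone and 5.81, 6.18 and 6.06 with both compounds, against 4.99, 5.50 and 5.34 in untreated cells and 5.48, 5.37 and 5.16 with XAV939 alone. The groups did not overlap, and the change was 0.85 (SE 0.0954, limma adjusted p = 0.00011). Every gene of this cluster kept the groups apart: Mir20b rose by 0.83, Mir92-2 by 0.49 and Mir363, only in the pooled test, by 0.58 (adjusted p = 0.0149).

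**Figure D5:**
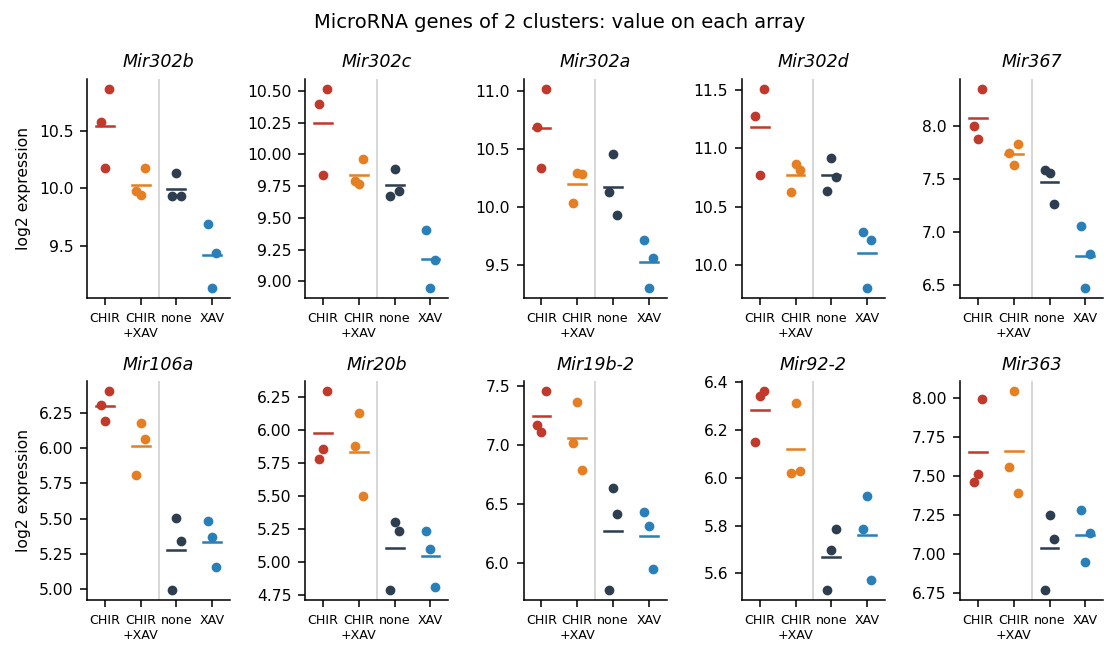
Log2 expression on each array (points) and group mean (line) for the 5 genes of the miR-302 cluster (top) and 5 genes of the miR-106a cluster (bottom), with the groups given CHIR99021 left of the grey line. In the top row the XAV939 group is lowest and the CHIR99021 group highest in every panel; in the bottom row both groups left of the line lie above both groups right of it.

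Promoters were searched for the TCF/LEF core motif, CTTTGAT or its reverse complement ATCAAAG, in the 250 bases before and 50 after each gene's start in RefSeq (GRCm38.p6). It was present in 3.73% of windows of tested genes (580 of 15563). Of the called higher genes with a window, 6 of 124 (4.84%) held it, and of the lower genes 2 of 135 (1.48%). Among genes called only by the pooled test the shares were 3 of 87 (3.45%) for higher genes and 1 of 105 (0.952%) for lower genes. Among genes that a single comparison also called they were 3 of 37 (8.11%) for higher genes and 1 of 30 (3.33%) for lower genes. These counts are small and no difference between them was tested. A match is a string of letters and not a site that was shown to be bound. The stretches with a match in Sp5 and Tnfrsf19, members of the Wnt target list, and in Ppp1r3c, which encodes a subunit that brings protein phosphatase 1 to glycogen and was called only by the pooled test (0.29), are shown with the motif in capitals. Ppp1r3c held 2 matches.
Sp5 (chr2:70474779-70474865, plus strand): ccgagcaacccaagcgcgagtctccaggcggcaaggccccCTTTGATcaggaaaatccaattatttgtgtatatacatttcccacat
Tnfrsf19 (chr14:61038143-61038229, minus strand): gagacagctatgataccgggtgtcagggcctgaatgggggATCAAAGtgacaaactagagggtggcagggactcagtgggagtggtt
Ppp1r3c (chr19:36736650-36736773, minus strand): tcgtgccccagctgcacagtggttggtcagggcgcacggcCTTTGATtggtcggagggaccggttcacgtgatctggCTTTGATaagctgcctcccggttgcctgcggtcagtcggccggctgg

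Of 17 transcription elongation genes, 1 rose (Ccnt2, 0.45) and 2 fell. Dido1 had the largest fall of any called gene; it encodes a protein linked to chromatin and transcription elongation, and ran between 7.50 and 7.72 (median 7.65) with CHIR99021 and between 8.29 and 8.49 (median 8.45) without it, a change of -0.79 (SE 0.0543, limma adjusted p = 3.7e-07). Ppp1r10, a nuclear regulator of protein phosphatase 1, fell by 0.67 (adjusted p = 4.2e-05). In another list, Mab21l2, a developmental gene of eye and neural tissue, fell by 0.69 (adjusted p = 0.00061). All 3 lower genes kept the groups apart and were also called in a single comparison, unlike the modest changes above.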

How the data were processed

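Biotin-labelled total RNA of each sample was put on 1 Affymetrix array, 12 in all, per the labels' protocols. The authors deposited 1 value per probe, taken here as log2 expression because values ran from 2.52 to 14.3. The submitters' processing notes name Partek; the normalization is not given in the sources used here. No further normalization was applied. Of 35399 probes, 21789 had 1 gene symbol; the probe with the highest mean stood for each of 19938 genes. Tbxt was not analysed here.

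With limma 3.58.1 in R 4.3.3 (lmFit, eBayes, two-sided, Benjamini-Hochberg), an additive model of CHIR99021 and XAV939 was fitted to all 12 arrays; 4 group means gave the single comparisons and the interaction. The number of arrays, 6 against 6, limits the precision. The fits were tested on simulated data. Alternatives covered normalization, filters, probe rules, error models, covariates and leaving out arrays.

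The members and lists were chosen with earlier results of these data known. Named genes were the 12 higher and 12 lower with the smallest p among genes called only by the pooled test, the 5 largest changes each way, up to 6 called members per list plus any called only by the pooled test, fixed genes, and 2 genes on each side of the threshold. Dkk1, Pax6, Ppp1r3c, Mir20a and Mir369 fall outside it and were chosen after their values were seen. Sequences are from RefSeq tables of GRCm38.p6. Figures were drawn with matplotlib 3.10.9.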

Additional observations from a re-analysis of the deposited data

Results flagged for a closer look

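Single arrays stood apart within the 6 arrays of a side for 4 of the 105 named genes, by Dixon's ratio of the gap to the range, in 5 of 210 sets tested (2.38%); chance gives about 1 in 20. Ascl2 had a ratio of 0.649 with CHIR99021, where replicate 1 with both compounds read 5.17 against 5.28 to 5.35 on the others. Without CHIR99021 its ratio was 0.70, where untreated replicate 2 read 5.41 against 5.55 to 5.61. Fnip1 had a ratio of 0.751 with CHIR99021, where replicate 1 with both compounds read 8.75 against 8.42 to 8.50. Rgma had a ratio of 0.682 without CHIR99021, where untreated replicate 1 read 6.07 against 5.53 to 5.71. Foxk2 had a ratio of 0.649 without CHIR99021, where untreated replicate 3 read 8.04 against 8.22 to 8.32.

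Of 13610 probes with no single gene symbol, which the comparisons do not use, 16 (0.118%) were called with CHIR99021. They were 7 higher and 9 lower, with changes from -0.61 to 0.66. Over genes the share called was 1.7%. The adjustment ran over all 35399 probes together, so the share of false calls within this subset is not known. Of the 16, 13 are not listed in the annotation and 3 have several symbols.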

How the results depend on the processing

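No sign was reversed under any alternative for the 96 named genes that were called; 64 of them were called in every alternative fit that tested them (24 to 26 fits, since filters removed dim genes) and 32 lost the call in at least 1. Of all 339 called genes 128 were called in every fit that tested them, and of the 247 called only by the pooled test 53 (16 higher, 37 lower). Of those 247, 1 had the opposite sign with the mean of a gene's probes and 1 with all probes tested. The count called only by the pooled test was 149 without the XAV939 term, 103 with array SD as covariate, 159 without untreated replicate 3 and XAV939 replicate 2, and 70 with a change of at least 0.32; the pooled count was 189, 207 and 150 for the last 3. Leaving out each array gave 220 to 288 pooled and 163 to 213 only pooled, lowest without CHIR99021 replicate 3; fewer samples enter these fits. The share of pooled calls that were higher, 48.4% as reported, was 38.5% with quantile normalization (126 higher, 201 lower), 41.0% with cyclic loess (135, 194), 54.9% with median centring, 55.3% with genes above the median and 37.6% with array SD as covariate (71, 118); the cause was not tested. The interaction count of 0 became 1 with trend and robust settings, with array weights and without CHIR99021 replicate 3, so it was 0 to 1 over the arrays left out. Same-numbered arrays did not deviate together (r = -0.247 to 0.201), and arrays with different numbers ranged as widely (r = -0.301 to 0.328). Whether the replicate numbers pair cultures cannot be told from this check. The replicate block gave 308 pooled calls, 220 of them only pooled.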

Other observations

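Genes next to those described above were looked up after their values had been seen. Frat1, which encodes a protein that binds GSK3, fell by 0.26 (limma adjusted p = 0.0353), with 6.26 to 6.69 with CHIR99021 and 6.57 to 6.93 without it. Dact1, a modulator of Wnt signalling through Dishevelled, rose by 0.65 (adjusted p = 0.00010), with 5.24 to 5.61 with CHIR99021 and 4.60 to 4.92 without it, all 6 of those without it below the background measure of 4.93. Of the Hippo pathway genes outside the target list, Tead3, a partner of YAP on DNA, fell by 0.32 and Vgll4, a competitor of YAP for TEAD factors, by 0.31, while the kinase gene Lats1 rose by 0.30. The retinoic acid receptor genes Rara and Rarg fell by 0.22 and 0.23. All of these but Dact1 were called only by the pooled test.

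Larp7, the gene within which the miR-302 cluster lies, was not called (-0.10, limma adjusted p = 0.525), with 9.65 to 9.96 with CHIR99021 and 9.82 to 10.09 without it. Whether Larp7 and the cluster share a transcript was not tested, so its value does not stand for the precursor of these microRNAs. Mir17hg, the host of Mir19b-1 and Mir20a, was not called either (0.08, adjusted p = 0.812), nor were Mir18 (0.22, adjusted p = 0.473) and Mir19a (0.20, adjusted p = 0.323) of the same cluster.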
